A study of Mus musculus with 12 samples.

Results

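DNA replication in S phase depends on a set of genes that proliferating cells switch on together before copying their chromosomes. The 33 S phase and DNA replication genes described here were picked by symbol, and all 33 were found among the 46983 gene symbols of each deposited table. They cover origin licensing (8 genes), helicase activation (2 genes), the replication fork (9 genes), nucleotide supply with the uracil repair enzyme Ung (5 genes), chromatin copying (6 genes) and the G1/S regulators Ccne1, Ccne2 and E2f1 (3 genes). A gene entered the tests where its mean over the 6 libraries of a table was 10 normalized counts or more, which 28 of the 33 reached in the non-cardiomyocyte (NonCM) table and 24 in the cardiomyocyte (CM) table.

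The libraries are bulk RNA sequencing of hearts of BL6/C57 mice in 4 groups of 3. The groups are NonCM Wls fl/fl, NonCM control, CM Wls fl/fl and CM control, where Wls fl/fl mice carry MCM/+ with floxed Wls and control mice carry MCM/+ alone. All mice were given 3 tamoxifen doses on postnatal days 1 to 3 and underwent myocardial infarction on postnatal day 2, and tissue was taken 2 weeks after surgery, although the sample labels call the cells adult. MCM is the usual name of MerCreMer, a Cre recombinase that acts after tamoxifen, and Wls carries Wnt proteins out of the cell. Floxed Wls without MCM is in no group, nor are uninjured or tamoxifen-free hearts, and the labels name neither the promoter of MCM nor the floxed exons. The series description has both fractions taken from each mouse and 3 hearts per condition, but the labels do not say which CM and NonCM libraries share a heart. The comparison asks what each fraction expresses when Wls is targeted with MCM.

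As background, a cell loads the ring-shaped MCM helicase onto its origins in G1 with the help of Cdc6 and Cdt1. At the start of S phase Cdc45 and the GINS complex turn the helicase on, and polymerases, the sliding clamp Pcna and its loaders then copy both strands. Many of these genes are transcribed under E2F factors when cyclin E and its kinase inactivate the retinoblastoma protein. Heart muscle cells of mice largely leave the cell cycle in the first week after birth, whereas fibroblasts, macrophages and endothelial cells can divide after an infarction.

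Library depth ranged from 1160146 reads (NonCM control replicate 1) to 10281214 reads (NonCM Wls fl/fl replicate 1), so that 1 read equals 5.54 normalized counts in the shallowest library and at most 1.23 in the others. The third replicate resembled a mixture of the other two in every group, lying close to their weighted mean, with a residual of 0.994 to 1.04 times counting noise, against 1.11 to 1.72 times for the other libraries. If replicate 3 is not a separate sample, the replicate error given here is too small, so results are also given without it. Wls had 91.6, 57.3 and 93.9 normalized counts in CM Wls fl/fl libraries, against 243, 201 and 210 in CM controls (log2 change -1.45, limma adjusted p = 0.00389). In NonCM it had 356, 323 and 316 in Wls fl/fl libraries, against 427, 374 and 407 in controls (log2 change -0.28, adjusted p = 0.0831). The 16 cardiomyocyte markers took 112825 ± 5769 RPM (reads scaled to a common library total) in CM Wls fl/fl libraries and 111467 ± 917 RPM in CM controls, and 64037 ± 1417 RPM in NonCM Wls fl/fl libraries and 76072 ± 3610 RPM in NonCM controls (SD, n = 3 each), so that the NonCM fraction held much cardiomyocyte RNA. The 10 fibroblast markers took 14282 ± 594 and 9444 ± 106 RPM in NonCM Wls fl/fl and control libraries, and 1263 ± 153 and 1193 ± 75.3 in CM. The 10 endothelial markers took 1513 ± 53.2 and 1605 ± 33.6 RPM in NonCM, and 1134 ± 45.9 and 1169 ± 22.0 in CM. The 9 pericyte and smooth muscle markers took 1657 ± 27.6 and 1709 ± 17.9 RPM in NonCM, and 1899 ± 66.2 and 1876 ± 65.9 in CM. The CM fraction thus held vascular RNA too, and its values are not those of cardiomyocytes alone. In bulk RNA, fewer cells of a type and less RNA per cell cannot be told apart.

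None of the S phase genes passed the test for genotype in either fraction. In NonCM, 0 of 28 were called by limma at an adjusted p under 0.05, where 4.51% of all 13271 genes tested were called. Without adjustment, 5 of the 28 had p under 0.05, where 19.3% of all genes did, and all 5 were higher in Wls fl/fl, where 10.5% of all genes were higher at that level. These 5 were the licensing genes Cdt1, Mcm6 and Mcm5, the polymerase gene Pola1 and the regulator E2f1. The median log2 change of the 28 was 0.07, with 17 above 0, against a median of 0.02 for all genes, of which 53.2% were above 0. In CM, 0 of 24 were called, where 0.0921% of all 11944 genes tested were called, and 1 of the 24, Pcna, had an unadjusted p under 0.05 (8.74% of all genes). By edgeR 0 of 24 were called as well (0.1% of all genes). Pcna was also the 1 tested member with every Wls fl/fl library below every control (7.05% of all genes). The CM median was -0.02, with 11 of 24 above 0, against 0.00 for all genes, of which 50.1% were above 0. The 95% intervals lay wholly between -1 and 1 on the log2 scale for 25 of 28 genes in NonCM and 20 of 24 in CM, so that changes of 2-fold or more lay outside them for most members. Smaller changes could be missed. On simulated counts limma found 0 of 22 NonCM genes with a mean under 50 that were changed by 0.5 on the log2 scale, and 4 of 22 changed by 1.

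**Figure D1:**
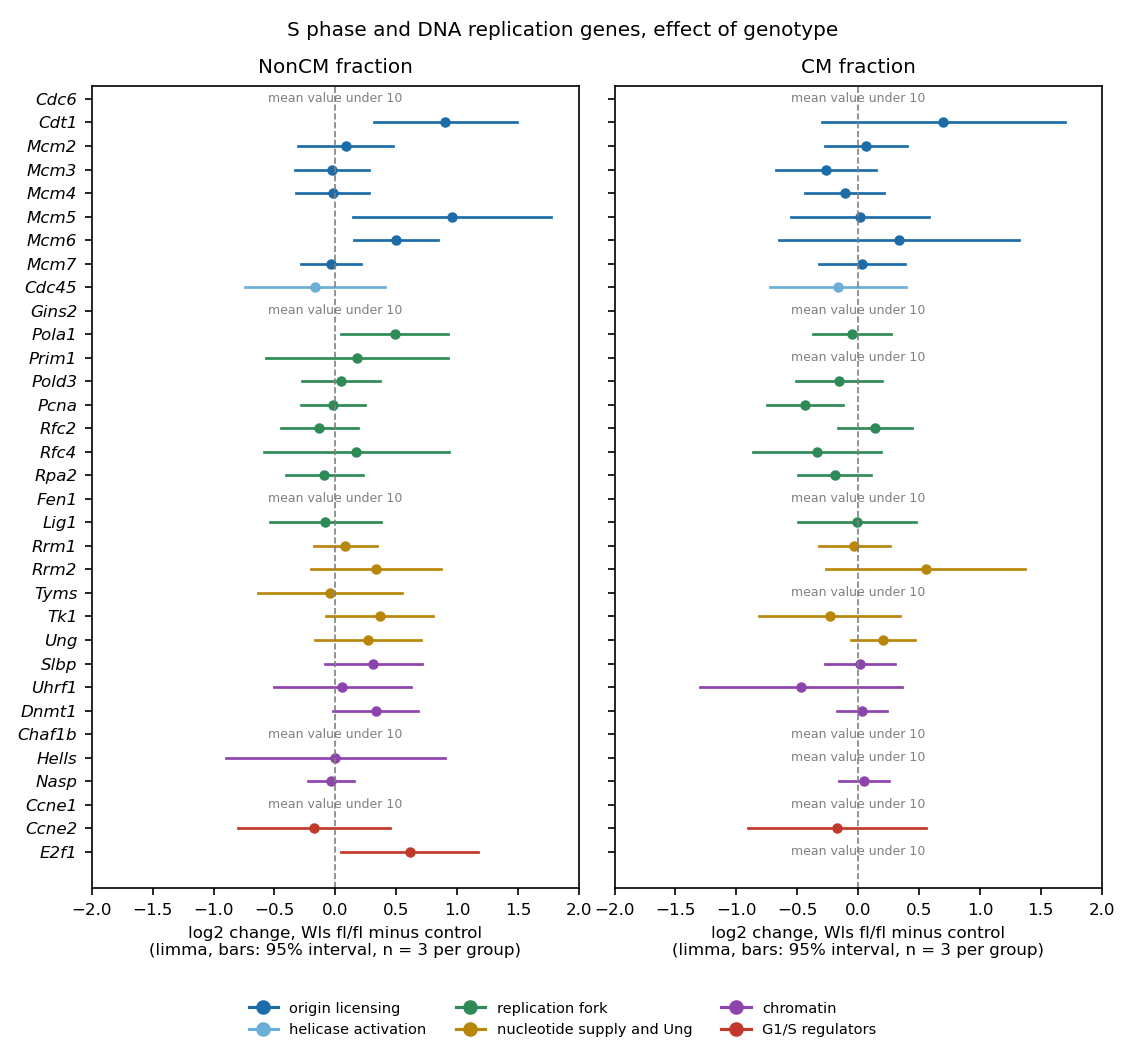
The log2 change of each S phase gene, Wls fl/fl minus control, with its 95% interval from limma (n = 3 per group), for NonCM on the left and CM on the right, coloured by role. Intervals of 5 genes in NonCM lie above 0 (Cdt1, Mcm5, Mcm6, Pola1 and E2f1) and that of Pcna in CM lies below 0; no gene passed the adjusted threshold.

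Origin licensing held the members nearest to the threshold. Cdt1, which brings the MCM helicase to origins, had 26.7, 30.6 and 26.2 normalized counts in NonCM Wls fl/fl libraries, against 11.1, 17.5 and 15.2 in controls. All 3 Wls fl/fl libraries lay above all 3 controls. The log2 change was 0.90 (SE 0.26, 95% interval 0.32 to 1.49) with a limma adjusted p of 0.0895. Cdt1 rests on 2 reads in the shallow control replicate 1, and on at most 46 in any NonCM library. Mcm6, a subunit of the helicase ring, had 60.4, 57.2 and 52.3 in NonCM Wls fl/fl libraries, against 38.8, 41.9 and 38.4 in controls, again with no overlap (log2 change 0.50, SE 0.15, 95% interval 0.16 to 0.84, adjusted p = 0.106). With edgeR's quasi-likelihood test on recovered reads, Cdt1 (log2 change 0.79, adjusted p = 0.0388) and Mcm6 (0.50, adjusted p = 0.0459) both passed, as 2 of 28 members, where that test called 5.73% of all genes higher. Over all alternatives the adjusted p ran between 0.0388 and 0.521 for Cdt1 and between 0.0459 and 0.537 for Mcm6. In edgeR fits with 1 library left out, Cdt1 passed without Wls fl/fl replicate 1 (0.0495) or control replicate 1 (0.0491) and in no other, and Mcm6 passed in none. Without replicate 3 of both genotypes, neither gene passed by limma or edgeR.

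Mcm5, another ring subunit, stands outside the naming rule, as do Pola1 and E2f1, and these 3 were chosen after their values were seen. Mcm5 had 45.1, 39.9 and 41.1 normalized counts in NonCM Wls fl/fl libraries, against 11.1, 23.6 and 35.5 in controls. Its log2 change was 0.96 (SE 0.36, 95% interval 0.14 to 1.77, adjusted p = 0.183) and was 0.57 by edgeR, and the lowest control value rests on 2 reads of the shallow library. The other ring subunits lay near 0. Mcm4, the licensing gene of highest mean count, had 97.9, 123 and 94.2 in NonCM Wls fl/fl libraries, against 99.8, 116 and 103 in controls (log2 change -0.02, 95% interval -0.32 to 0.28). Mcm2, Mcm3 and Mcm7 had log2 changes of 0.09, -0.03 and -0.03 in NonCM. The estimates for the 6 ring subunits in NonCM thus ran from -0.03 to 0.96, with overlapping intervals for Mcm4 and Mcm6. In CM, Mcm4 had 45.8, 60.4 and 56.96 in Wls fl/fl libraries, against 57.2, 56.8 and 61.3 in controls, Cdt1 had 8.22, 16.7 and 12.9 against 3.07, 12.3 and 8.76, and Mcm6 had 5.87, 22.9 and 10.4 against 10.2, 11.1 and 5.84. The groups overlapped for all 3. Cdc6, the loader that Cdt1 works with, stayed under the filter, with 30 reads over the NonCM Wls fl/fl libraries and 12 over the controls, and with 10 and 4 in CM.

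Promoter sequences are shown here for the genes nearest to the threshold. E2F factors bind elements of the type TTTGGCGC, TTTGCCGC, TTTCGCGC and TTTCCCGC, and these 4 octamers were searched on both strands in RefSeq windows (GRCm38.p6) of 300 bases, 250 before and 50 after each gene's start. Of 29 members with a window, 12 (41.4%) held at least 1 octamer, against 704 of 27025 genes (2.60%). By role, the octamer was in 6 of 7 licensing genes, 3 of 8 fork genes, 3 of 6 chromatin genes, 0 of 5 nucleotide genes, 0 of 1 helicase activation gene and 0 of 2 regulators. Shown are the 250 bases before the start for the 3 genes with an octamer there among those at an unadjusted p under 0.05, and a stretch of 30 bases from base 21 to base 50 of Cdt1, whose octamer lies after the start. Capitals mark the octamers. The Mcm5 capitals and the first Mcm6 capitals are each 2 octamers on opposite strands that overlap.
Mcm6, chr1:128359706-128359955, minus strand: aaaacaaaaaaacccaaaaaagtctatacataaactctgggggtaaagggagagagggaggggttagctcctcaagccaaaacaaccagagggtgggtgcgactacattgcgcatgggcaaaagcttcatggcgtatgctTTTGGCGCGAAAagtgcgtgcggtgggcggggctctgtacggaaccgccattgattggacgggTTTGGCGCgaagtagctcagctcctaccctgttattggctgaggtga
Mcm5, chr8:75109259-75109508, plus strand: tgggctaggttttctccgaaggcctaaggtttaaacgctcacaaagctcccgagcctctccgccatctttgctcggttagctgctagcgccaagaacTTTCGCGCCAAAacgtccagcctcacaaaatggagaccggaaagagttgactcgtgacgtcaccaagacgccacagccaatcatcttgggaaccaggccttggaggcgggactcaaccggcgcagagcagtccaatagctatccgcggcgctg
Pola1, chrX:93632156-93632405, minus strand: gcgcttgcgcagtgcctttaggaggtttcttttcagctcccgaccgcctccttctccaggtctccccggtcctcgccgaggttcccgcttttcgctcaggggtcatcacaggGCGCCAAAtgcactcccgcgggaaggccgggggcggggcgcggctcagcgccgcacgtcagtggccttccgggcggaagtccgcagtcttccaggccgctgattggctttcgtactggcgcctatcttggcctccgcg
Cdt1, chr8:122568035-122568064, plus strand: gggaactaccttTTTGGCGCcatggcgcaa
Mcm3, Mcm7, Cdc6, Pold3, Lig1, Uhrf1, Dnmt1 and Hells also held an octamer. For Mcm7, Cdc6, Lig1, Uhrf1 and Dnmt1 the window with the octamer lies inside the gene model of GENCODE M21. Their octamers are thus near a RefSeq start within the gene, not at the outer start of the gene model, and the counts above include them. E2f1, whose own gene product belongs to the E2F family, held none in its window (chr2:154569377-154569676, minus strand). That window lies inside the E2f1 gene model of GENCODE M21, which starts at 154569892. Sequence before that start was not searched, so whether it holds an octamer is not known here, and the count for the regulators includes this window. Mcm4, Gins2, Rfc2 and Ccne2 had no window in the table and were not searched. A match is a run of letters and was not tested for binding here. The scan and the choice of promoters followed a look at the values.

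Helicase activation was represented by Cdc45, which joins the MCM ring at firing, and by the GINS subunit Gins2. Cdc45 had 16.5, 16.6 and 14.9 normalized counts in NonCM Wls fl/fl libraries, against 16.6, 17.5 and 20.3 in controls, and 21.1, 15.6 and 15.5 against 16.3, 18.5 and 24.3 in CM. Its log2 changes were -0.17 (95% interval -0.74 to 0.41) in NonCM and -0.16 (-0.72 to 0.39) in CM, with overlapping groups in both. Gins2 stayed under the filter in both tables, and 67.3% of its exon bases overlap Gse1 on the opposite strand, so that its reads could not be assigned with certainty.

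At the fork, Pola1, the catalytic subunit of the polymerase that starts each new strand, had 118, 107 and 102 normalized counts in NonCM Wls fl/fl libraries, against 55.4, 86.9 and 96.3 in controls. The groups did not overlap, and the log2 change was 0.49 (SE 0.19, 95% interval 0.05 to 0.93, adjusted p = 0.211). Its lowest control value is that of the shallow replicate 1, and the authors' deposited log2 change was 0.34. Its primase partner Prim1 had a change of 0.17 (95% interval -0.57 to 0.92). Pcna, the sliding clamp that holds polymerases on DNA, was the member of smallest p in CM. It had 59.9, 83.4 and 64.7 normalized counts in CM Wls fl/fl libraries, against 86.9, 92.6 and 101 in CM controls, with every Wls fl/fl library below every control. The CM log2 change was -0.44 (SE 0.14, 95% interval -0.75 to -0.13) with an unadjusted p of 0.00995 and an adjusted p of 0.444, which ran between 0.313 and 0.9996 over the alternatives. In NonCM Pcna had 114, 128 and 120 against 127, 134 and 106 (log2 change -0.02, 95% interval -0.28 to 0.24). A processed pseudogene, Pcna-ps2, matches 51.4% of the Pcna transcript at 99.2% identity, and how the authors' counting shared reads between them is not given in the sources used here. Rfc2 and Rfc4, which load the clamp, Rpa2, which covers single-stranded DNA, Pold3 of the lagging-strand polymerase and the ligase Lig1 had log2 changes between -0.13 and 0.17 in NonCM and between -0.34 and 0.14 in CM. Fen1, which trims the fragments of the lagging strand, had at most 4 reads in any library, and 78.8% of its exon bases overlap the antisense gene Gm10143.

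**Figure D2:**
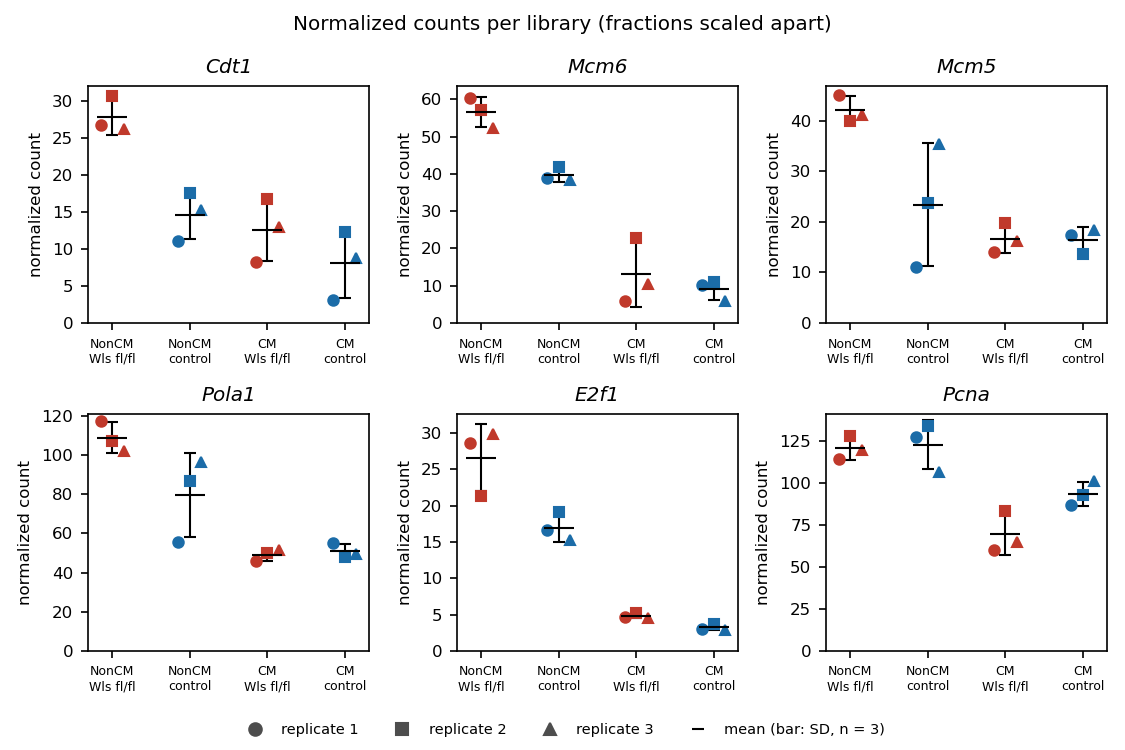
Normalized counts per library of the 5 NonCM genes and the CM gene with an unadjusted p under 0.05, with symbols for replicates and the mean ± SD of each group (n = 3). Wls fl/fl libraries lie above controls in NonCM for Cdt1, Mcm6, Mcm5, Pola1 and E2f1, the NonCM control replicate 1 is lowest for Cdt1, Mcm5 and Pola1, and for Pcna the separation is in CM, with Wls fl/fl below control.

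Among the nucleotide genes, Rrm1, the large subunit of ribonucleotide reductase, had 141, 163 and 170 normalized counts in NonCM Wls fl/fl libraries, against 166, 147 and 134 in controls, and 88.1, 122 and 93.9 against 95.03, 106 and 107 in CM. Groups overlapped in both fractions, with log2 changes of 0.08 in NonCM and -0.03 in CM. The small subunit Rrm2 and the thymidine kinase Tk1 lay above control in all NonCM Wls fl/fl libraries, with changes of 0.33 (95% interval -0.20 to 0.86) and 0.36 (-0.08 to 0.80). With them, 7 of 28 members had every Wls fl/fl library above every control in NonCM, where 13.9% of all genes did, and none had every one below (12.6% of all genes). Tyms, which makes thymidylate, had a change of -0.04 in NonCM. Ung, which removes uracil from DNA, had 68.7, 73.2 and 72.5 in NonCM Wls fl/fl libraries, against 44.3, 61.0 and 76.0 in controls, and 110, 141 and 139 against 101, 120 and 116 in CM, with overlapping groups in both (log2 changes 0.27 and 0.21). Here too the lowest NonCM control value is that of the shallow replicate 1, and the authors' deposited log2 change in NonCM was 0.14.

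Among the chromatin genes, Nasp, a histone chaperone, had 208, 241 and 232 normalized counts in NonCM Wls fl/fl libraries, against 233, 239 and 224 in controls, and 220, 241 and 239 against 209, 212 and 258 in CM. Its intervals were narrow, -0.22 to 0.15 in NonCM and -0.16 to 0.25 in CM. Dnmt1, which restores methylation on the copied strand, had 245, 278 and 251.1 in NonCM Wls fl/fl libraries, against 155, 224 and 246 in controls (log2 change 0.33, 95% interval -0.02 to 0.68, adjusted p = 0.286), and 146, 160 and 143 against 138, 147 and 154 in CM (0.03, -0.17 to 0.24). The groups overlapped in each case. The lowest NonCM control value of Dnmt1 is that of the shallow replicate 1, and the authors' deposited log2 change in NonCM was 0.22. Slbp, which binds histone mRNAs, and Uhrf1, which guides Dnmt1 to copied DNA, had changes of 0.31 and 0.06 in NonCM. The remodeller Hells had 12.1, 27.3 and 11.2 in NonCM Wls fl/fl libraries, against 22.2, 12.2 and 13.8 in controls, and Chaf1b, a subunit of the histone deposition factor CAF-1, stayed under the filter in both fractions.

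Of the regulators, E2f1 had 28.6, 21.3 and 29.9 normalized counts in NonCM Wls fl/fl libraries, against 16.6, 19.1 and 15.2 in controls, without overlap (log2 change 0.61, SE 0.25, 95% interval 0.05 to 1.17, adjusted p = 0.216). In CM it stayed under the filter at 4.70, 5.21 and 4.53 against 3.07, 3.70 and 2.92, which rests on 3 to 7 reads per library. Ccne2, a cyclin E, had 31.2, 29.9 and 34.4 in NonCM Wls fl/fl libraries, against 55.4, 25.2 and 33.3 in controls, where the shallow replicate 1 is the highest value, and 14.1, 28.1 and 15.5 against 16.3, 33.3 and 16.5 in CM. Its groups overlapped, and Ccne1 stayed under the filter with at most 7 reads in any library.

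**Figure D3:**
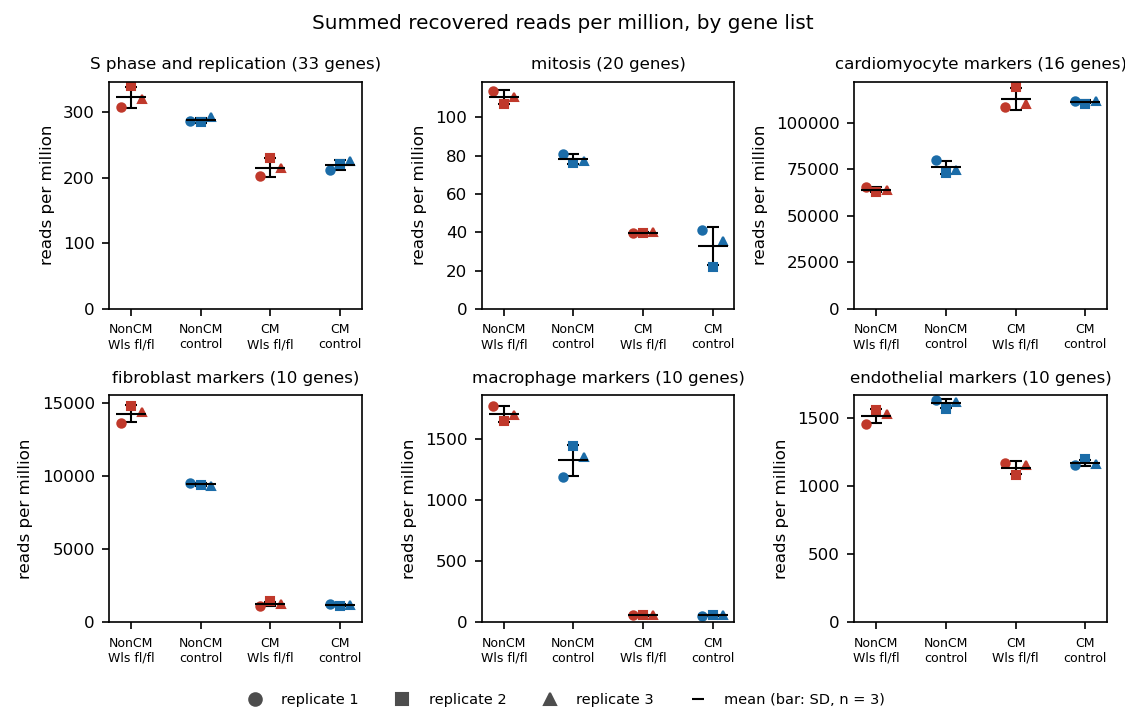
Reads scaled to a common library total (RPM) summed over each gene list in every library, with the mean ± SD of each group (n = 3), for the S phase genes, the mitosis genes and 4 lists of cell type markers. In NonCM, Wls fl/fl libraries lie above controls for the S phase, mitosis, fibroblast and macrophage lists and below them for cardiomyocyte markers. In CM the groups overlap for every list, with mitosis sums of 21.7 to 41.2 RPM in controls and 39.5 to 39.9 in Wls fl/fl.

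Summed over all 33 genes, the NonCM libraries held 308, 339.9 and 320.5 RPM in Wls fl/fl, against 286, 285 and 292 in controls, and the CM libraries held 202, 230 and 215 against 211, 220 and 226. The NonCM sums did not overlap. Cell type markers moved with genotype in the same libraries. By limma, 7 of 10 fibroblast markers, 2 of 10 macrophage markers and 1 of 6 epicardial markers were called higher in NonCM Wls fl/fl. Called lower were 12 of 16 cardiomyocyte markers, 1 of 10 endothelial markers and 1 of 8 tested pericyte and smooth muscle markers. Over all genes limma called 4.51% in either direction. The edgeR test called 9 fibroblast, 5 macrophage and 5 epicardial markers higher, where it called 5.73% of all genes higher. It called 15 cardiomyocyte, 2 endothelial and 2 pericyte and smooth muscle markers lower. Summed macrophage markers ranged from 1644 to 1772 RPM in NonCM Wls fl/fl, against 1187 to 1439 in controls, and neutrophil markers from 23.1 to 98.9 against 10.3 to 16.7, with 0 of 5 neutrophil markers called by limma and 4 by edgeR. Lymphocyte markers summed to 8.56 to 11.8 against 2.59 to 8.31, and erythroid markers to 307 to 806 against 362 to 697, with no marker of either list called by limma or edgeR. None of the listed markers was at 0 in every NonCM library, while Ly6g, Mpo and Cd3d were in CM. The part of these marker shifts in the S phase values was not tested.

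Other genes of the pathway were not called either. Of 104 further genes of licensing and firing, fork, nucleotide supply, chromatin and G1/S control, 103 were in the tables. Of these, 0 of 93 tested in NonCM and 0 of 80 tested in CM passed limma (4.51% and 0.0921% of all genes). At an unadjusted p under 0.05 there were 7 and 4 (19.3% and 8.74% of all genes). By edgeR 0 and 0 passed in either direction. Over all genes it called 5.73% higher in NonCM, a share that leaves out its lower calls, and 0.1% in either direction in CM. At the CM shares, a count of 0 says little about these genes. The cell cycle inhibitor Cdkn1a had 602, 667 and 659 normalized counts in NonCM Wls fl/fl libraries, against 405, 871 and 679 in controls (log2 change 0.05, adjusted p = 0.932), and a change of 0.01 in CM. Calls were made among the mitosis genes. Mki67, a marker of cycling cells, had 181, 166 and 179 in NonCM Wls fl/fl libraries, against 116, 118 and 117 in controls, and rose (log2 change 0.58, SE 0.09, limma adjusted p = 0.0106). Top2a, which untangles copied chromosomes, had 93.5, 107 and 100 against 61.0, 67.9 and 75.3, and rose (0.56, SE 0.13, adjusted p = 0.0461). These were the 2 of 16 tested mitosis genes that passed limma in NonCM, where 4.51% of all genes passed, and all 16 had changes above 0, as had 53.2% of all genes. By edgeR 5 of the 16 passed, all upward (5.73% of all genes), and limma-voom called the same 5, which were Mki67, Top2a, Ccnb2, Bub1b and Tpx2. Mki67 passed edgeR with any 1 library left out (adjusted p = 0.00127 to 0.0178), and Top2a passed edgeR only without Wls fl/fl replicate 1 or control replicate 1 (0.0158 and 0.0230). Mki67 also passed DESeq2 (0.0123), and Top2a did not (0.173). The limma calls depended more on single libraries. With 1 library left out, Mki67 passed limma without Wls fl/fl replicate 1 (0.0461), control replicate 1 (0.000827) or control replicate 2 (0.0170) and not without any other library, and Top2a only without control replicate 1 (0.0152). Without replicate 3 of both genotypes neither passed limma or edgeR. Ccna2, the S phase cyclin A, had 23.5, 25.3 and 26.2 against 22.2, 13.0 and 16.7 in NonCM, without overlap (0.54, adjusted p = 0.309). In CM, 0 of 3 tested mitosis genes passed. Mki67 had 32.9, 31.3 and 38.8 in CM Wls fl/fl libraries, against 19.4, 22.2 and 25.3 in CM controls. Its groups did not overlap there either (log2 change 0.60, limma adjusted p = 0.446). Ccna2 had at most 6.17 normalized counts in any CM library.

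Whether the effect of genotype differs between the fractions was tested as an interaction term when edgeR was fitted to all 12 libraries together. No S phase gene passed among 28 (1.33% of 13780 genes did, a share that rests on single libraries, since 0 to 276 genes in all passed with 1 library left out, against 183 in the full fit), and 1 had an unadjusted p under 0.05 (13.6% of all genes). That gene was Pcna, with a difference of 0.43 between its NonCM and CM changes and an adjusted p of 0.299. Hells had the largest difference, 1.12, with an adjusted p of 0.454, and was under the count filter of the CM fits. For Cdt1 the difference was 0.09 (adjusted p = 0.972), with at most 20 reads per library in CM. On simulated counts, 122 of 200 interactions of 1 on the log2 scale were found. These genes were drawn from all 13780 whatever their level, so the share found among genes as low as most members is not known.

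The fractions themselves differed, in a contrast added after the data were seen. It does not set cardiomyocytes against all other cells. Of 10 endothelial markers, 7 were not called between fractions in control hearts and 6 were not in Wls fl/fl hearts. In Wls fl/fl hearts 20 of 28 S phase genes were called higher in NonCM than in CM and 3 lower (33.2% and 32.5% of all genes), and in control hearts 11 were called higher and 3 lower (28% and 27.2% of all genes). All 11 were also called higher in Wls fl/fl hearts. E2f1 is in these counts and in the medians that follow, although it entered the fit through its NonCM values, which favours a higher call. The median NonCM minus CM difference was 0.60 in Wls fl/fl hearts and 0.33 in control hearts, against 0.01 and -0.00 over all genes. Libraries were scaled by TMM, which centres the fractions on each other. Without a scaling factor the median of all genes moved to 0.32 in Wls fl/fl hearts and 0.24 in control hearts. The S phase genes were then called 22 higher and 1 lower in Wls fl/fl hearts (6928 and 2546 of all 13780 genes). In control hearts they were called 16 higher and 1 lower (5782 and 2024 of all genes). The share of higher calls among all called genes was then 73.1% and 74.1%, against 50.5% and 50.7% with TMM. Without replicate 3 of all groups the calls in control hearts were 7 higher and 1 lower (2907 and 2655 of 13766 genes). Because the fractions of a heart could not be matched, no heart was used as a block.

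E2f1 and Mcm6 differed most. Genes entered the joint fit by a mean of 1 CPM or more over all 12 libraries. E2f1 was under 1 CPM in every CM library and so entered through its NonCM values, a choice that favours a higher NonCM level. Tyms, Prim1 and Hells were, like E2f1, under the count filter of the CM fits. E2f1 had 4.02, 2.98 and 4.13 CPM (TMM-scaled) in NonCM Wls fl/fl libraries, against 0.81, 0.91 and 0.81 in CM of the same genotype, and 2.26, 2.65 and 2.10 in NonCM controls, against 0.53, 0.63 and 0.50 in CM controls. The NonCM minus CM difference was 2.12 in Wls fl/fl hearts and 2.05 in control hearts on the log2 scale, without overlap of the fractions. Mcm6 differed by 1.80 in Wls fl/fl hearts and by 1.83 in control hearts. In control hearts, Tyms, Rrm2, Prim1, Lig1 and Mcm3 were higher in NonCM by 1.12, 1.12, 1.11, 0.90 and 0.78, followed by Mcm7, Mcm4, Pola1 and Dnmt1 at 0.63 to 0.31. Subunits of 1 helicase thus differed in size in control hearts, from 1.83 for Mcm6 to 0.02 for Mcm2.

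Ung ran the other way. It had 9.64, 10.2 and 10.02 CPM in NonCM Wls fl/fl libraries, against 18.9, 24.6 and 25.0 in CM of the same genotype, and 6.04, 8.47 and 10.5 CPM in NonCM controls, against 17.3, 20.3 and 19.8 in CM controls. The difference was -1.21 in Wls fl/fl hearts and -1.07 in control hearts, and stayed below 0 without a scaling factor (-0.91 and -0.83). Nasp (-0.38 and -0.30) and Rpa2 (-0.30 and -0.46) were also called lower in NonCM, in Wls fl/fl and control hearts. These 2 calls were lost without a scaling factor, where Nasp was at -0.07 and -0.06 and Rpa2 at 0.00 and -0.21. Of the 11 genes called higher in NonCM control hearts, 10 had a promoter window and 6 of them held the octamer, as did 0 of the 3 called lower and 5 of 12 of the uncalled. E2f1 is among the 10, with a window that lies inside its gene model. The windows with an octamer of Mcm7, Lig1 and Dnmt1, which are among the 6, lie inside their gene models too.

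**Figure D4:**
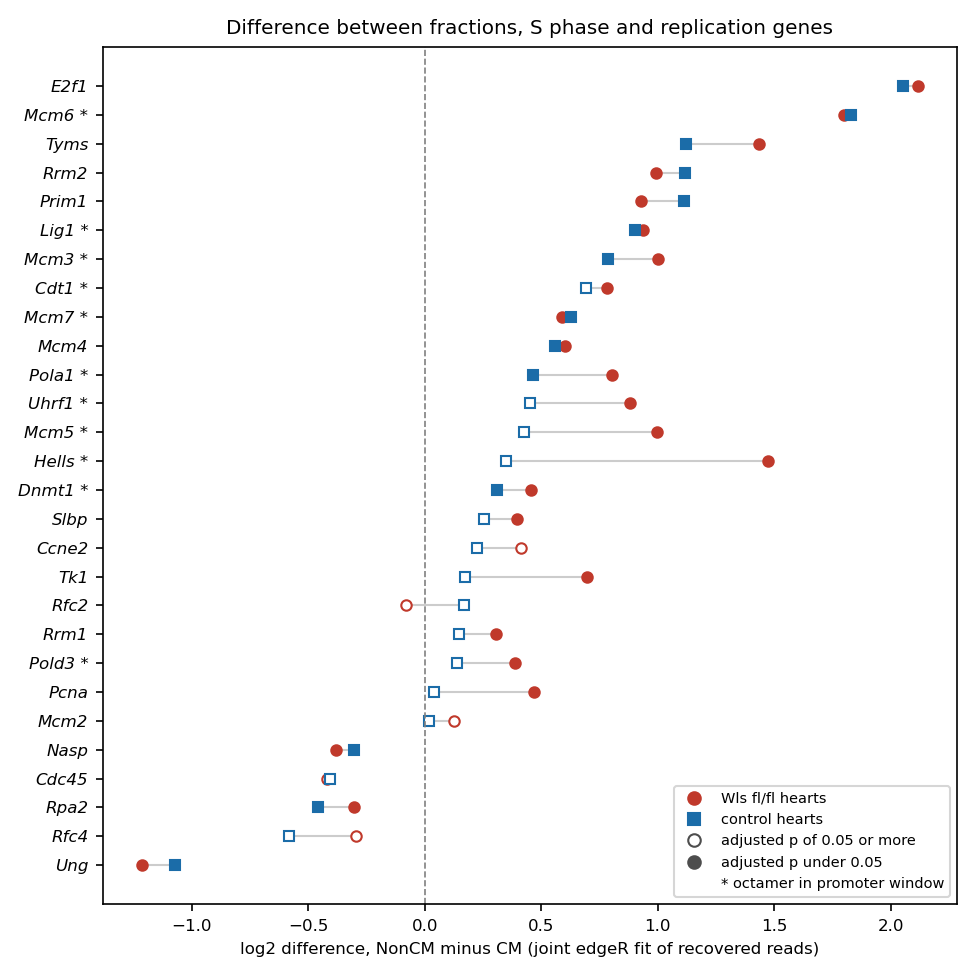
The log2 difference NonCM minus CM of the 28 tested S phase genes in Wls fl/fl hearts (circles) and control hearts (squares), from the joint edgeR fit, sorted by the control value, with filled symbols for an adjusted p under 0.05 and an asterisk for an octamer in the promoter window (Mcm4, Rfc2 and Ccne2 had no window and carry none, and the E2f1 window lies inside its gene model). The windows with an octamer of Mcm7, Lig1, Uhrf1 and Dnmt1 lie inside their gene models as well. E2f1 and Mcm6 lie near 2 in both genotypes and Ung lies near -1.

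Per kilobase of transcript, levels of the 28 genes spanned a wide range. In NonCM, Nasp had 14.9 and 15.1 CPM per kilobase in Wls fl/fl and control libraries, ahead of Pcna (11.1 and 11.1) and Slbp (8.50 and 6.82), while Hells was lowest at 0.401 and 0.376. In CM, Nasp led with 19.3 and 18.2, followed by Ung (10.7 and 8.95) and Pcna (8.01 and 10.5), whose order depended on genotype, and Hells was lowest at 0.147 in Wls fl/fl libraries while E2f1 was lowest at 0.201 in controls. The ring subunits Mcm2 to Mcm7, which form the helicase in equal parts, had between 1.73 (Mcm5) and 4.81 (Mcm7) CPM per kilobase in NonCM Wls fl/fl libraries, and between 0.957 (Mcm5) and 4.86 (Mcm7) in NonCM controls. In CM they ran from 0.787 (Mcm6) to 3.23 (Mcm7) in Wls fl/fl libraries and from 0.530 (Mcm6) to 3.08 (Mcm7) in controls. A processed pseudogene, Gm5487, matches 72.8% of the Mcm7 transcript.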

How the data were processed

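Bulk RNA was measured in 12 libraries, with groups taken from the labelled genotype and fraction. Per the submitters' processing notes, STAR, DESeq2 and the build mm10 were used. Versions, annotation, counter and strandedness were not given in the sources used here. In the deposited tables (CM and NonCM) there is a signal value per gene and library, the normalized count, which the authors made by dividing counts by a size factor within the table. Per the file headers they also hold the authors' log2 fold change, its standard error, the Wald statistic as a score, and p-values with and without adjustment. By the authors' deposited adjusted p-values, 0 members passed in either fraction, where 14 members in CM and 16 in NonCM have one and 23 genes in CM and 633 in NonCM passed in all. All values (100%) were whole multiples of what 1 read is worth, to 0.01 reads, so reads were recovered.

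Within each fraction, limma 3.58.1 in R 4.3.3 (eBayes with trend) was fitted on log2(value + 1) to all genes whose mean reached 10, as Wls fl/fl minus control, adjusted by Benjamini-Hochberg over all genes at 0.05. Fold changes are on that scale, where the added 1 pulls changes of low genes toward 0. They are not lower bounds, since the limma changes of Cdt1 and Mcm5 in NonCM were larger than their edgeR changes. The labels do not say which libraries come from separate animals, so the p-values reflect only how these libraries vary, which may be technical. With 3 libraries a group, an exact permutation test could not go below 0.1, and none was run. Alternatives were TMM scaling, other filters and pseudocounts, edgeR 4.0.16, DESeq2 1.42.0 and limma-voom on recovered reads, and libraries left out. The interaction used edgeR on genes of mean CPM 1 or more. On simulated counts with 100 genes changed by 0.5 and 100 by 1, limma found 63 and 84 in CM (11843 genes, 5 false among 152 calls). In NonCM limma found 49 and 79 of 99 each (13136 genes, 2 false among 130). On the same counts edgeR found 62 and 86 in CM, with 5 false among 153 calls. In NonCM edgeR found 64 and 92 of 99 each, with 15 false among 171 calls.

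The members and lists were chosen with earlier results of these data known. Values per library are given for members called by limma, edgeR or the interaction, the member of highest mean per role and fraction, the called genes of smallest p of other lists, and Mki67, Top2a, Ccna2, Cdkn1a and Wls. Promoters come from RefSeq (29 of 33 members matched) and gene models from GENCODE M21. Near copies were sought with blastn 2.17.0 at 95% identity over 100 bases. Added after the data were seen were the fraction contrasts, edgeR with libraries left out, CPM without a scaling factor and the octamer scan.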

Additional observations from a re-analysis of the deposited data

How the results depend on the processing

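No S phase gene was called in CM under any alternative run. In NonCM the count of 0 became 2 by edgeR, 1 by limma-voom and 0 to 2 with 1 library left out, reaching 2 by limma without the shallow control replicate 1 (Cdt1 and Mcm6, adjusted p = 0.0395 and 0.0495), and 0 to 1 by edgeR with 1 library left out. Of the other replication genes, 0 to 1 were called with 1 library left out, which was Tfdp2 without control replicate 1 and Orc6, by edgeR, without Wls fl/fl replicate 1. The NonCM median of 0.07 became 0.014 at a mean of 50 or more, 0.10 by edgeR, 0.10 by DESeq2 and 0.12 without replicate 3 of both genotypes, and lay between 0.048 and 0.11 with 1 library left out. The CM median lay between -0.10 (without Wls fl/fl replicate 2) and 0.0063. The 14 calls between fractions in control hearts, beside 7602 of all 13780 genes, changed with the setting. At a mean CPM of 5 or more they became 9 of 15 genes tested, where 6284 of all 10375 genes were called. Without replicate 3 of all groups they became 8, where 5562 of 13766 genes were called. With 1 library left out they became 10 to 16, where 6674 to 7670 genes were called. The 23 in Wls fl/fl hearts, beside 9056 of 13780 genes, became 12 at a CPM of 5 or more (7365 of 10375 genes). They became 16 without replicate 3 (7299 of 13766 genes) and 18 to 23 with 1 left out (8304 to 9172 genes). The interaction called 0 members under all its alternatives, but over all genes its 183 calls became 1 without replicate 3 of all groups and 0 without NonCM control replicate 3, and were also 3 or fewer without NonCM Wls fl/fl replicate 2 or 3 or without replicate 3 of either CM group, where a count of 0 members says little.

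Signs near 0 turned for uncalled genes. Without replicate 3, Cdc45 (0.061) and Rrm1 (0.045) turned in CM, and Mcm4 (0.029) and Rrm1 (-0.048) in NonCM. By limma-voom, Pcna was 0.0011 and Ccne2 0.038 in NonCM, and Ccne2 was 0.011 by edgeR. With 1 library left out, the lowest and highest log2 changes were as follows. In CM they were -0.19 and 0.0068 for Mcm4, -0.0066 and 0.14 for Nasp, -0.47 and 0.15 for Ccne2, -0.17 and 0.060 for Rrm1, -0.017 and 0.071 for Dnmt1, and -0.14 and 0.76 for Mcm6. In NonCM they were -0.14 and 0.051 for Mcm4, -0.12 and 0.048 for Pcna, -0.078 and 0.028 for Nasp, and -0.43 and 0.13 for Ccne2. The cause was not tested. No paired analysis was possible because the labels give no shared replicate numbers and the numbers used follow accession order. DESeq2 gave an adjusted p to 11 of 24 CM and 16 of 28 NonCM members.

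Depth limits the low genes most, and counting error in NonCM control replicate 1 is the largest. Counting reads cannot show whether protein or DNA synthesis changed.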
